A study of Mus musculus with 2 samples.

Results

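The interleukin-20 (IL-20) family cytokines, IL-22 and IL-10, with the receptor chains that bind them, were followed in RNA-seq of mouse ear skin. The group was taken as a fixed list of 10 genes, Il19, Il20, Il24, Il22, Il10, Il20ra, Il20rb, Il22ra1, Il10ra and Il10rb, all 10 of which were found by symbol among the 34745 genes of the deposited count table. Both ear specimens came from mice that had received imiquimod, a TLR7 agonist used to produce psoriasis-like inflammation, as 30 mg of 5% cream on each ear every day for 3 days, with collection on day 4. There were 2 libraries, 1 labelled KAT8-cKO (a conditional knockout of the histone acetyltransferase gene Kat8) and 1 labelled WT, so there were no replicates, no test was run, and how far single animals vary is not known. Untreated skin was not analysed here. The labels name neither the promoter or cell type of the Cre or other driver nor the strain, age, sex or number of animals per library.

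These cytokines belong to the IL-10 family and signal through pairs of class II cytokine receptor chains, which activate JAK kinases and mainly STAT3. IL-19, IL-20 and IL-24 bind the pair of IL-20RA and IL-20RB, and IL-20 and IL-24 also bind IL-22RA1 with IL-20RB. IL-22 binds IL-22RA1 with IL-10RB, and IL-10 binds IL-10RA with IL-10RB. In skin, IL-20RA, IL-20RB and IL-22RA1 are found mainly on keratinocytes, which respond with growth, antimicrobial peptides and reduced terminal differentiation, whereas IL-10RA is found on leukocytes and IL-10 restrains them.

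The libraries held 13727524 counts (labelled KAT8-cKO) and 12179608 counts (labelled WT). Kat8 itself stood higher under the KAT8-cKO label, with 351 counts there and 219 in the library labelled WT, a ratio of scaled counts of 1.27 (95% interval 1.07 to 1.51). A single count for all exons and cells does not separate deleted from remaining exons, and Kat8 shares exon sequence with Prss8. Sex-linked transcripts also differed. Xist had 6 counts in the library labelled KAT8-cKO and 11891 in the library labelled WT, and the Y-linked Eif2s3y had 838 counts under the KAT8-cKO label and 0 under the WT label. Sex-linked expression and the genotype label therefore cannot be told apart in any comparison below. All 10 listed basal keratinocyte markers were measured, with a summed level of 27780.2 CPM in the library labelled KAT8-cKO and 23161 CPM in the library labelled WT, and both labelled specimens held skeletal muscle markers (2817 CPM under the KAT8-cKO label and 14301 CPM under the WT label) and adipocyte markers (330 CPM under the KAT8-cKO label and 3274 CPM under the WT label) as well.

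Across the group, the library labelled KAT8-cKO differed by 2-fold or more from the library labelled WT in 3 of these genes, with more Il20ra and less Il10 and Il24 transcript. Il19 stood higher and Il10rb and Il22ra1 lower by less than 2-fold, and Il10ra was nearly level. Counts were scaled to a total of 1000000 per library (CPM) with trimmed mean of M values (TMM) factors, and a gene was counted as higher or lower when log2 of (CPM labelled KAT8-cKO + 1) over (CPM labelled WT + 1) reached 1 in size, a 2-fold difference. A gene needed 1 CPM or more in 1 of the libraries to be called measured. By this rule 9 of the 10 genes were measured, of which 1 was higher, 2 were lower and 6 lay within 2-fold. Il10 passed the filter only through the library labelled WT and Il22 only through the library labelled KAT8-cKO. Of all 15240 genes measured, 4.56% were higher and 8.63% lower, and the counts in the group are too few to be read against these shares. The median log2 ratio was -0.08 over the 9 measured genes and 0.01 over all measured genes. With plain CPM, 6.33% of all genes were higher and 6.94% lower, and scaled to basal keratinocyte markers 2.98% were higher and 12.3% lower.

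**Figure D1:**
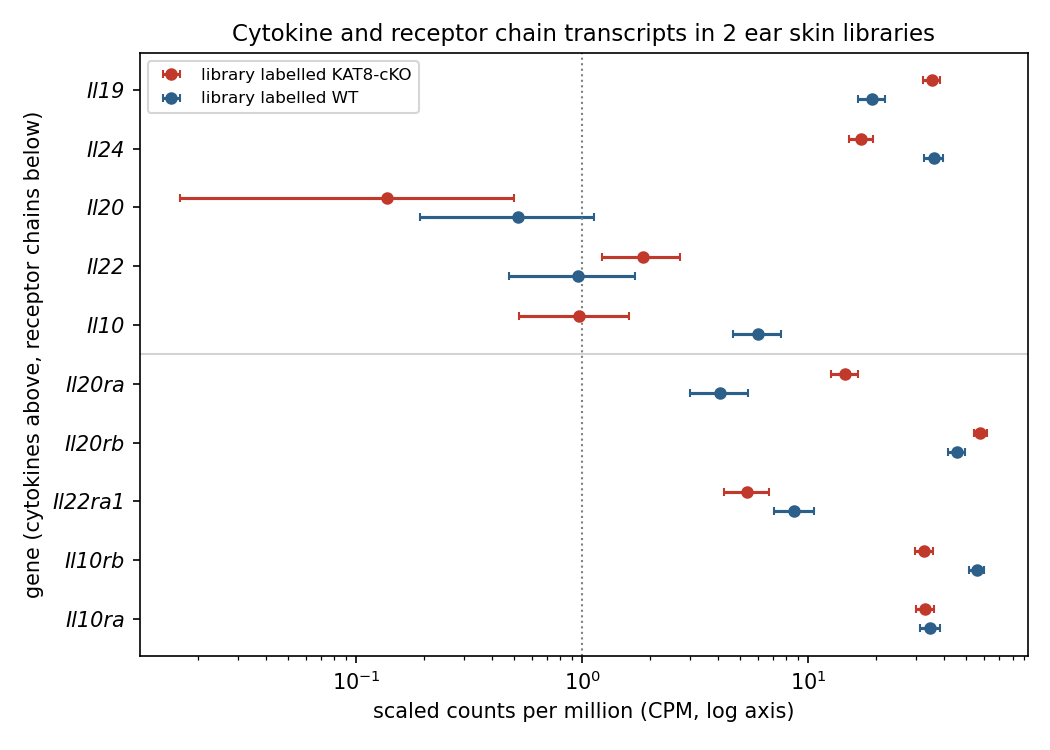
Level of each cytokine and receptor chain transcript in scaled CPM on a log axis, in the library labelled KAT8-cKO (red) and the library labelled WT (blue); points are 1 library each, bars are exact 95% Poisson intervals for counting error, and the dotted line marks the filter of 1 CPM. The intervals of the 2 libraries stand apart for Il19, Il24, Il10, Il20ra, Il20rb, Il22ra1 and Il10rb and overlap for Il20, Il22 and Il10ra.

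Among the 3 ligands that use IL-20RB, the order of Il19 and Il24 was turned round between the libraries. Il19 (chromosome 1 from 130932656 to 130940115, minus strand, GRCm38), whose product acts through IL-20RA with IL-20RB, had 511 counts in the library labelled KAT8-cKO and 220 in the library labelled WT, that is 35.2 CPM under the KAT8-cKO label and 19.1 CPM under the WT label. The plain ratio of CPM was 1.84 with an exact (Clopper-Pearson) 95% interval of 1.57 to 2.17 that covers counting error only. The log2 ratio with the added 1 CPM was 0.85, below the 2-fold rule. With plain CPM it was 1.0 and past the rule.

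Il24 (chromosome 1 from 130882074 to 130887454, minus strand), which like IL-20 uses both IL-20RB receptors, had 249 counts in the library labelled KAT8-cKO and 413 in the library labelled WT. These were 17.2 CPM under the KAT8-cKO label and 35.8 CPM under the WT label, 2.09-fold lower under the KAT8-cKO label (interval 1.78 to 2.46). Its log2 ratio of -1.02 lay just past the rule, and the call was lost with plain CPM (-0.87) and with library totals that left out mitochondrial and the 50 most abundant genes (-0.93).

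Il20 (chromosome 1 from 130906985 to 130911451, minus strand), the ligand that gave the family its name, was at the edge of detection and not measured by the filter. It had 2 counts in the library labelled KAT8-cKO and 6 in the library labelled WT, a ratio of 0.265 whose interval, 0.0261 to 1.48, includes 1. No difference in Il20 was detectable at this depth.

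The balance of Il19 and Il24 needs no scaling between libraries. Il19 made up 67.1% (interval 63.6 to 70.4%) of the 762 counts on the 3 ligands under the KAT8-cKO label and 34.4% (30.7 to 38.3%) of the 639 under the WT label. There were 2.05 counts of Il19 per count of Il24 in the library labelled KAT8-cKO and 0.533 in the library labelled WT, a ratio of 3.85 between these ratios (interval 3.06 to 4.85). Per kilobase of annotated exon, Il19 was the highest of the 10 genes in the library labelled KAT8-cKO (30.6 CPM per kb) and Il24 the highest in the library labelled WT (25.9 CPM per kb).

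The 250 bases before the start of Il19 are shown as the regulatory sequence of the one cytokine of this cluster with a positive log2 ratio, which lay within 2-fold. They come from the RefSeq promoter table (GRCm38.p6, chr1:130940116-130940365, minus strand), written 5′ to 3′, with matches to 3 short motifs in capitals.
Il19: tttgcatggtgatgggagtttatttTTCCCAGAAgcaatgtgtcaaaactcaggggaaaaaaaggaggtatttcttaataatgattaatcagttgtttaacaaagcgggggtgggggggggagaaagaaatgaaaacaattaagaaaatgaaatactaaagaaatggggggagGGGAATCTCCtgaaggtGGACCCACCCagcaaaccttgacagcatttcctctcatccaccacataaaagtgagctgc
The motifs were searched on both strands of windows from 250 bases before to 50 bases after each start. They were TTCNNNGAA, the palindrome bound by STAT factors, TGANTCA, bound by AP-1, and GGG followed by 5 unspecified bases and CC, a loose form of the site bound by NF-kB. The Il19 window held 1 STAT match and 2 NF-kB matches and no AP-1 match, and none of these matches overlapped. Of 32851 promoter windows in the table, 8.30% held the STAT motif, 7.81% the AP-1 motif and 50.8% the NF-kB motif. Windows were found for 6 of the 10 genes, Il19, Il20, Il22, Il20ra, Il20rb and Il22ra1, and the STAT motif was in the Il19 window alone of these 6. A match is a string of letters and not a measured binding site.

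Il10 showed the largest difference of the group in the downward direction. Il10 (chromosome 1 from 131019845 to 131024974, plus strand), which encodes the anti-inflammatory cytokine of the family, had 14 counts in the library labelled KAT8-cKO and 69 in the library labelled WT, or 0.965 CPM under the KAT8-cKO label and 5.99 CPM under the WT label. It was 6.21-fold lower (interval 3.46 to 11.9), with a log2 ratio of -1.83, and 2.16% of all measured genes had a lower ratio. Its log2 ratio lay between -2.63 and -1.72 under all 9 alternatives tried.

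Myeloid markers were lower beside Il10, while markers of some other leukocytes were higher. Of 13 monocyte and macrophage markers 7 were lower and none higher (median log2 ratio -1.0), and their summed level was 1228 CPM in the library labelled KAT8-cKO and 2908 CPM in the library labelled WT. Of 12 measured neutrophil markers 10 were lower and none higher (median -1.77, summed level 5591 CPM under the KAT8-cKO label and 15507 CPM under the WT label). Of 10 measured dendritic and Langerhans cell markers 7 were higher and none lower (median 1.48, summed level 328 CPM under the KAT8-cKO label and 123 CPM under the WT label). Of 9 measured gamma delta T and innate lymphoid cell markers 4 were higher and 1 lower (median 0.95). Per count of Cd14, a co-receptor for lipopolysaccharide on myeloid cells that was 5.39-fold lower, Il10 stood at 0.868 times its value in the library labelled WT (interval 0.451 to 1.56). Per count of the macrophage scavenger receptor gene Cd163, which was 3.70-fold lower, it stood at 0.595 times that value (interval 0.306 to 1.08). Both intervals include 1. Fewer cells of a type and less RNA per cell cannot be told apart in bulk tissue, and the part of these cells in the Il10 result was not tested.

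Il10, Il19, Il20 and Il24 lie side by side within 142.9 kb of chromosome 1, and their ratios did not follow one direction. Il19, whose start lies at -79.7 kb from that of Il10, had a positive log2 ratio, and Il24, at -132.4 kb, and Il10 had negative ones. The 10 other measured genes within 250 kb of this span had log2 ratios between -0.76 and 0.53, none past 2-fold. The nearest on the Il24 side, Fcmr, which encodes a receptor for IgM, had 16 counts in the library labelled KAT8-cKO and 22 in the library labelled WT (log2 ratio -0.47), and Fcamr, an Fc receptor for IgA and IgM, had 34 under the KAT8-cKO label and 41 under the WT label (-0.45). On the other side, Mapkapk2, a kinase downstream of p38, had 3803 counts under the KAT8-cKO label and 3206 under the WT label (-0.09), and the kinase gene Dyrk3 had 117 under the KAT8-cKO label and 61 under the WT label (0.53). Ikbke, a kinase of innate signalling, stood at -0.06, Eif2d at -0.17, Rassf5 at -0.52, Yod1 at -0.76, AA986860 at -0.25 and Pfkfb2 at 0.00.

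**Figure D2:**
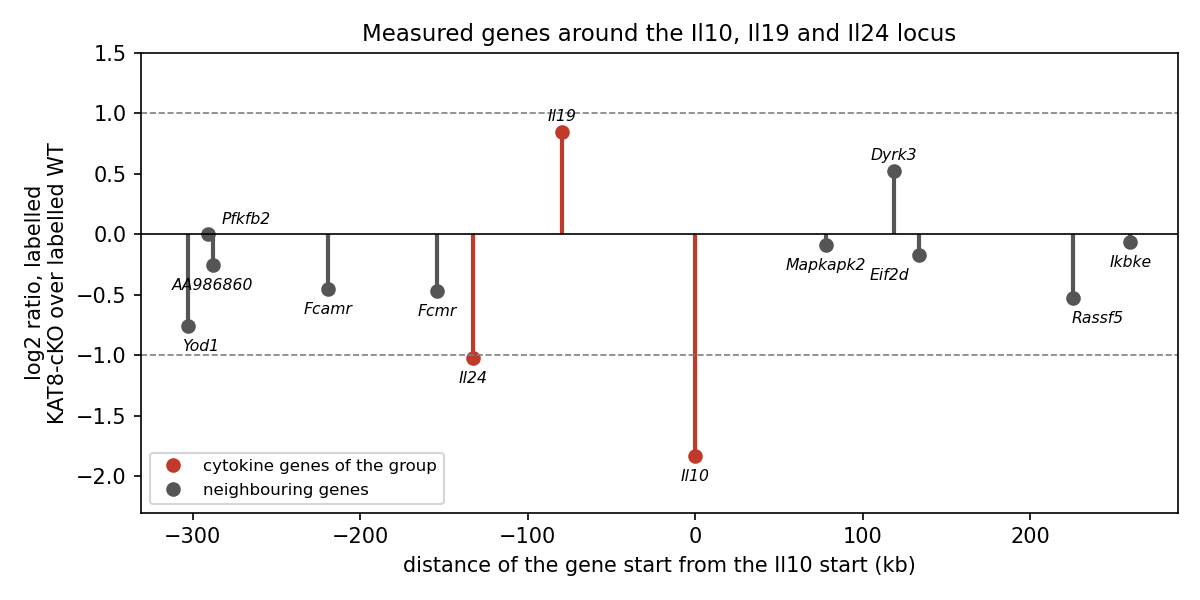
Log2 ratio, (CPM labelled KAT8-cKO + 1) over (CPM labelled WT + 1), of each measured gene around the Il10 cluster against the distance of its start from the Il10 start in kb; red points are cytokine genes of the group, grey points are neighbours, and dashed lines mark 2-fold. The neighbours stay between -0.76 and 0.53, whereas Il19 is at 0.85, Il24 at -1.02 and Il10 at -1.83; Il20 was not measured and is not drawn.

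Il22 was near the limit of detection. Il22 (chromosome 10 from 118204942 to 118210047, plus strand), made by T cells and innate lymphoid cells and acting on keratinocytes, had 27 counts in the library labelled KAT8-cKO and 11 in the library labelled WT, or 1.86 CPM under the KAT8-cKO label and 0.955 CPM under the WT label. The ratio was 1.95 with an interval of 0.936 to 4.35 that includes 1, and the log2 ratio was 0.55. A near-identical copy, Iltifb, 90.1 kb away on the opposite strand, had 8 counts in the library labelled KAT8-cKO and 0 in the library labelled WT. With the library at 0 set to a floor of 3 counts, the ratio of Iltifb came to 2.12, which rests on that setting. The exact interval for the counts themselves begins lower, at 1.36-fold. Iltifb was below 1 CPM in both libraries and so was not measured by the filter. The 1 other measured gene within 250 kb, Mdm1, had a log2 ratio of 0.22.

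The annotated transcripts of Il22 and Iltifb, of 1110 and 1111 bases, were 97.3% identical, and their coding sequences of 537 bases differed at 9 positions. Of 1011 stretches of 100 bases in the Il22 transcript, 20.4% also occurred without change in the Iltifb transcript, so reads of such stretches could be assigned to either gene. A stretch of 90 coding bases that holds 4 of the 9 differences (coding bases 128 to 217, counted from the start codon, across an exon junction) is shown to let the copies be compared. The stretches are from the GENCODE M21 transcripts (GRCm38, Il22 at chr10:118205118-118205600 on the plus strand and Iltifb at chr10:118294380-118294862 on the minus strand), 5′ to 3′, with the 4 differing bases in capitals.
Il22: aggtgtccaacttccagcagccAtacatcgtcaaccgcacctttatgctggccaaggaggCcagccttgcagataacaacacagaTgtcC
Iltifb: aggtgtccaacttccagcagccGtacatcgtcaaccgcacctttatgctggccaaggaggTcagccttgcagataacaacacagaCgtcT
With the Il22 base first, these are A150G, C188T, T213C and C217T. With the counts of both copies added, a choice made after the values were seen, there were 35 counts in the library labelled KAT8-cKO and 11 in the library labelled WT, a ratio of 2.53 (interval 1.25 to 5.51) and a log2 ratio of 0.80, still below the 2-fold rule. Beside Il22, its soluble decoy receptor gene Il22ra2, also singled out after its values were seen, had 183 counts under the KAT8-cKO label and 107 counts under the WT label (ratio 1.36, interval 1.06 to 1.74).

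Genes of the lymphocytes that make IL-22 went in both directions. Of the 16 genes listed, 12 were measured, of which 1 was higher and 2 were lower, with a median log2 ratio of 0.09. Il17f, a cytokine made by the same lymphocytes, was the higher one, with 153 counts in the library labelled KAT8-cKO and 20 in the library labelled WT (6.07-fold, interval 3.80 to 10.2). Il1b, which promotes IL-17 and IL-22 production, was 4.57-fold lower (271 CPM under the KAT8-cKO label and 1238 CPM under the WT label, exons shared with Il1bos). Per count of Il17f, Il22 stood at 0.321 times its value in the library labelled WT (interval 0.130 to 0.834). In the same library 4 of 11 measured T cell markers were higher and none lower (median 0.61, summed level 38.2 CPM under the KAT8-cKO label and 18.6 CPM under the WT label). Lck, a T cell receptor kinase, had 84 counts under the KAT8-cKO label and 17 counts under the WT label, and Il22 per count of Lck stood at 0.497 times its value in the library labelled WT (interval 0.192 to 1.33). Il17f had the highest ratio of its list and Lck one of the highest of the T cell markers. By the rule with the added 1 CPM, 7 of the 11 measured T cell markers lay within 2-fold. At low levels the added 1 CPM makes log2 ratios smaller in size than plain ratios give. By plain ratio Il17a stood at 2.61-fold (0.91 as log2 ratio by the rule). The T cell genes Cd3d and Cd247 stood at 2.38-fold (interval 0.975 to 6.63) and 2.30-fold (interval 1.34 to 4.10). Cd3e, Cd5 and Cd2 stood at 1.75-fold, 1.15-fold and 0.794-fold. The value of Il22 per count of a lymphocyte gene thus depends on the gene chosen. The part of T cell number in the Il22 value was not tested.

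Among the receptor chains, Il20ra had the highest ratio of the group. Il20ra (chromosome 10 from 19712570 to 19760053, plus strand), the chain that with IL-20RB receives IL-19, IL-20 and IL-24, had 211 counts in the library labelled KAT8-cKO and 47 in the library labelled WT. These were 14.5 CPM under the KAT8-cKO label and 4.08 CPM under the WT label, 3.56-fold higher under the KAT8-cKO label (interval 2.59 to 5.0), with a log2 ratio of 1.61 that 98.5% of all measured genes fell below. The log2 ratio lay between 1.38 and 1.83 under all 9 alternatives.

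**Figure D3:**
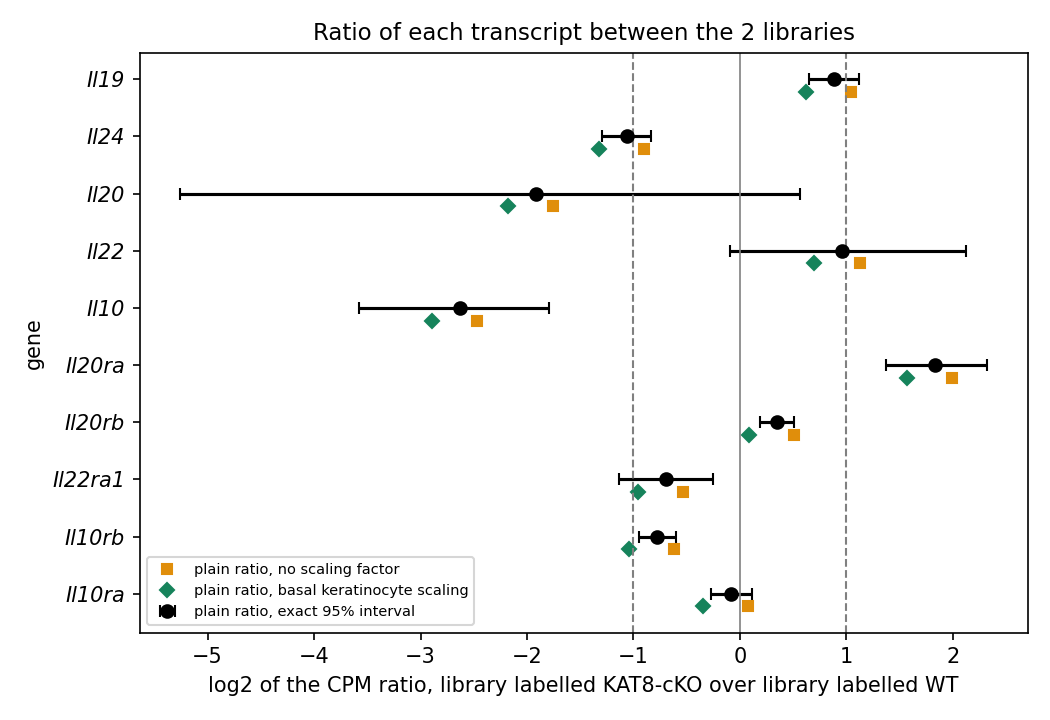
Log2 of the plain CPM ratio, library labelled KAT8-cKO over library labelled WT, for each of the 10 genes; black points carry exact 95% intervals for counting error, squares show the ratio with no scaling factor and diamonds the ratio scaled to basal keratinocyte markers, and dashed lines mark 2-fold. Il20ra and Il10 have intervals wholly past 2-fold, while those of Il24, Il19, Il22ra1, Il20 and Il22 reach across a 2-fold line.

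Il20rb (chromosome 9 from 100457719 to 100486788, minus strand), the chain shared by both receptors of this family, had 838 counts in the library labelled KAT8-cKO and 524 in the library labelled WT. These were 57.7 CPM under the KAT8-cKO label and 45.5 CPM under the WT label, a ratio of 1.27 (interval 1.14 to 1.42). The log2 ratio of 0.34 dropped to 0.08 when scaled to basal keratinocyte markers. Il20rb was the most abundant receptor chain per kb in the library labelled KAT8-cKO (13.7 CPM per kb), and Il10rb was so in the library labelled WT (14.6 CPM per kb).

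Il22ra1 (chromosome 4 from 135728172 to 135752140, plus strand), which pairs with IL-10RB for IL-22 and with IL-20RB for IL-20 and IL-24, had 78 counts in the library labelled KAT8-cKO and 100 in the library labelled WT. These were 5.37 CPM under the KAT8-cKO label and 8.68 CPM under the WT label, 1.61-fold lower (interval 1.19 to 2.20), with a log2 ratio of -0.60. Il22ra1 was thus below level and Il20ra above it, and their intervals lay on opposite sides of 1.

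Il10rb (chromosome 16 from 91406164 to 91425834, plus strand), the chain shared by the IL-22 and IL-10 receptors, had 471 counts in the library labelled KAT8-cKO and 640 in the library labelled WT. These were 32.5 CPM under the KAT8-cKO label and 55.6 CPM under the WT label, 1.71-fold lower (interval 1.52 to 1.93), with a log2 ratio of -0.76 that passed the rule (-1.01) when scaled to basal keratinocyte markers. Il10rb was the one gene of the group whose annotated exons overlapped those of another gene, Gm21970 (26 counts under the KAT8-cKO label and 54 counts under the WT label), so reads of the shared exons cannot be told apart.

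Il10ra (chromosome 9 from 45253837 to 45269149, minus strand), the ligand-binding chain for IL-10 on leukocytes, had 475 counts in the library labelled KAT8-cKO and 399 in the library labelled WT, or 32.7 CPM under the KAT8-cKO label and 34.6 CPM under the WT label. The ratio of 0.945 had an interval of 0.826 to 1.08 that includes 1. Its log2 ratio was -0.08 and turned to 0.08 with plain CPM.

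Counts of one gene per count of another differed between the libraries for some pairs of the group and not for others. There were 0.252 counts of Il20ra per count of Il20rb in the library labelled KAT8-cKO and 0.0897 in the library labelled WT, a ratio of 2.81 between them (interval 2.0 to 4.01). There were 2.71 counts of Il20ra per count of Il22ra1 in the library labelled KAT8-cKO and 0.470 in the library labelled WT, a ratio of 5.76 (interval 3.65 to 9.10). Il20rb per Il22ra1, the second receptor for IL-20 and IL-24, gave a ratio of 2.05 (interval 1.48 to 2.85). The 2 chains of the IL-22 receptor, Il22ra1 and Il10rb, kept nearly the same proportion, 0.166 under the KAT8-cKO label and 0.156 under the WT label, with a ratio of 1.06 (interval 0.759 to 1.48). For the IL-10 receptor, Il10ra per Il10rb gave 1.62 (interval 1.35 to 1.94), and Il10 per Il10ra gave 0.170 (interval 0.0874 to 0.312). The pairs were chosen after the counts had been seen.

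**Figure D4:**
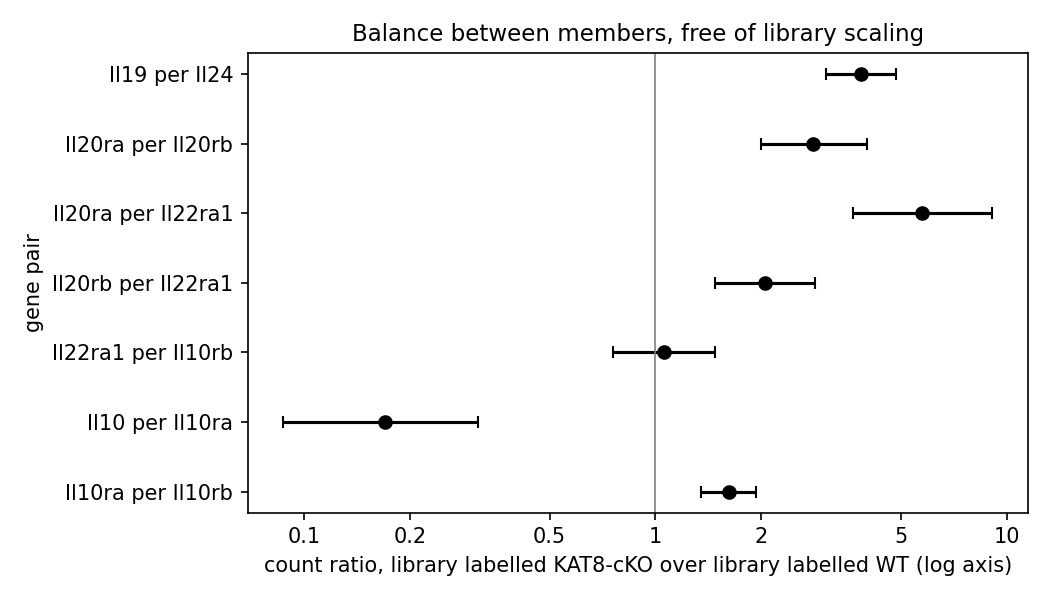
Ratio between the 2 libraries of the counts of one gene per count of another, library labelled KAT8-cKO over library labelled WT, on a log axis; bars are exact conditional 95% intervals for counting error, and the line marks an unchanged balance. Il20ra per Il22ra1 (5.76) and Il19 per Il24 (3.85) lie farthest above the line, Il10 per Il10ra (0.170) lies below it, and the interval of Il22ra1 per Il10rb spans it.

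Keratinocyte and gland markers differed beside these receptor values. Of 10 basal keratinocyte markers 2 were higher and none lower in the library labelled KAT8-cKO (median log2 ratio 0.44), namely Krt15, a keratin of basal and hair follicle cells, at 6.77-fold and Col17a1, a hemidesmosome collagen, at 2.01-fold. Of 10 suprabasal markers 4 were lower and none higher (median -0.84, summed level 8404 CPM under the KAT8-cKO label and 12946 CPM under the WT label). Of 10 sebaceous gland markers 9 were higher and 1 lower (median 2.92, summed level 8915 CPM under the KAT8-cKO label and 2015 CPM under the WT label). Il20ra per count of Col17a1 stood at 1.77 times its value in the library labelled WT (interval 1.28 to 2.49). Per count of Krt15 it stood at 0.526 times (interval 0.377 to 0.747), and per count of the sebaceous fatty acyl-CoA reductase gene Far2 at 0.137 times (interval 0.0972 to 0.197). Krt15 and Far2 had the highest ratios of their lists, and the other 8 basal markers lay within 2-fold. Krt5 and Krt14, the basal markers with the highest levels, stood at 1.47-fold and 0.959-fold, below the 3.56-fold of Il20ra. The value of Il20ra per count of a marker thus depends on the marker chosen. The part of these cells in the Il20ra result was not tested.

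The regulatory windows of Il20ra and Il22ra1 are shown because these 2 chains, each a partner of IL-20RB, stood on opposite sides of level. Both are from the RefSeq promoter table (GRCm38.p6, plus strand), Il20ra at chr10:19712337-19712569 and Il22ra1 at chr4:135727909-135728158, 5′ to 3′, with motif matches in capitals.
Il20ra: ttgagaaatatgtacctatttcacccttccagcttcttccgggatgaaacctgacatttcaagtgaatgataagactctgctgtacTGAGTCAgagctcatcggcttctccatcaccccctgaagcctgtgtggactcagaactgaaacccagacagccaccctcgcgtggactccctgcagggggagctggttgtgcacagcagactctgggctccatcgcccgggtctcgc
Il22ra1: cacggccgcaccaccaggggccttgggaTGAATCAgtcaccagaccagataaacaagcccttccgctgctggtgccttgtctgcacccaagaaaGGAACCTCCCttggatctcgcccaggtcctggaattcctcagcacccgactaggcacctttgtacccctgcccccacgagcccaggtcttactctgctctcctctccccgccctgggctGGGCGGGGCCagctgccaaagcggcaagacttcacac
Each window held 1 AP-1 match, TGAGTCA in Il20ra and TGAATCA in Il22ra1. The Il22ra1 window held 2 NF-kB matches and that of Il20ra none, and neither held the STAT motif.

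Ranked by CPM per kb, the 10 genes came in the order Il19, Il20rb, Il24, Il10ra, Il10rb, Il20ra, Il22ra1, Il22, Il10 and Il20 in the library labelled KAT8-cKO. In the library labelled WT the order was Il24, Il19, Il10rb, Il20rb, Il10ra, Il10, Il22ra1, Il20ra, Il22 and Il20. Neighbours whose counting intervals overlapped were Il20rb and Il24, Il10ra and Il10rb, and each adjacent pair from Il22ra1 down in the library labelled KAT8-cKO. In the library labelled WT they were Il19 and Il10rb, Il20rb and Il10ra, Il10 and Il22ra1, and each adjacent pair from Il20ra down. Il20ra thus stood at 5.99 CPM per kb in the library labelled KAT8-cKO, against 1.68 in the library labelled WT, and Il10 at 0.736 against 4.57. Lengths are of all annotated exons of a gene together, 4206 bases for Il20rb and 3808 bases for Il10rb, and a transcript can be shorter than this.

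Other genes of the class II cytokine and receptor family differed little. Of 10 listed, 7 were measured, none higher and 1 lower (median log2 ratio 0.08). F3, which encodes tissue factor and is a relative of these receptors, was 2.53-fold lower (39.6 CPM in the library labelled KAT8-cKO and 100.3 CPM in the library labelled WT). The interferon gamma receptor gene Ifngr1 stood at a log2 ratio of 0.44. The interferon lambda genes Ifnl2 and Ifnl3 had 0 counts in both libraries.

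The kinases and STAT factors downstream of the receptors also lay mostly within 2-fold. Of 13 JAK-STAT genes, all measured, none was higher and 1 was lower (median log2 ratio -0.12). Stat3, the main factor activated by IL-20 family cytokines and IL-22, had 347 CPM in the library labelled KAT8-cKO and 266 CPM in the library labelled WT (log2 ratio 0.38), and shares exons with Stat5a. Socs3, a feedback inhibitor that STAT3 induces, had 209 CPM under the KAT8-cKO label and 264 CPM under the WT label (-0.33). Tyk2 and Jak1, kinases that bind these receptor chains, had log2 ratios of 0.54 and -0.26.

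Epidermal genes known from human and mouse keratinocytes to be raised by IL-20 family cytokines or IL-22 were lower in part in the library labelled KAT8-cKO. Of 18 listed, 17 were measured, none higher and 9 lower, with a median log2 ratio of -1.04 against 0.01 over all measured genes. The antimicrobial peptide genes Defb4 and Defb14 were 6.61-fold (interval 4.71 to 9.47) and 3.88-fold (interval 3.27 to 4.61) lower. The wound keratin gene Krt6b was 3.79-fold lower (1126 CPM under the KAT8-cKO label and 4272 CPM under the WT label) and the acute phase gene Saa3 3.18-fold lower (513 CPM under the KAT8-cKO label and 1629 CPM under the WT label). The list shares S100a8, S100a9 and Lcn2 with the neutrophil markers, which were lower in the same library, and without these 3 genes 7 of 14 were lower (median -0.94). Several of these genes also respond to IL-17 and IL-1. The 8 other measured genes of the list lay within 2-fold and on both sides of level. Mmp3, Cxcl5, Krt17, Cxcl1 and Reg3g had positive log2 ratios of 0.83, 0.51, 0.47, 0.38 and 0.27, and the ratio interval of Reg3g includes 1. S100a9, Saa1 and S100a7a had negative ones. Per count of Krt6b, Il24 stood at 1.82 times (interval 1.54 to 2.13) and Il19 at 7.0 times (interval 5.96 to 8.24) its value in the library labelled WT. Krt6b had the lowest ratio of the listed keratins, so both values depend on that choice.

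Genes known to be lowered by the same cytokines, mainly from human keratinocytes, were lower as well. Of 10 listed and measured, none was higher and 7 were lower (median log2 ratio -1.60). Flg, the precursor of filaggrin in the cornified layer, was 5.55-fold lower, the desmosomal cadherin gene Dsc1 4.91-fold, Casp14, a protease of filaggrin processing, 4.64-fold and Ivl, which encodes involucrin, 4.54-fold lower. Krt1, Krt10 and Dsc1 also stand among the suprabasal markers, and without them 4 of 7 were lower (median -1.36). The medians of genes raised and of genes lowered by these cytokines thus stood on the same side, though some genes of the raised list stood above level. Both lists were written with earlier results of these libraries known.

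Of 10 macrophage genes raised by IL-10, all measured, none was higher and 3 were lower, with a median log2 ratio of -0.47. Tnfaip3, an inhibitor of NF-kB signalling, was 3.09-fold lower (25.8 CPM in the library labelled KAT8-cKO and 79.6 CPM in the library labelled WT). Zfp36, which destabilises cytokine mRNA, was 2.74-fold lower, and the transcription factor gene Nfil3 2.35-fold lower. The other 7 genes lay within 2-fold and on both sides of level. Etv3 (1.69), Bcl3 (1.38) and Sbno2 (1.29) had ratios above 1, and Socs3, Il4ra, Il1rn and Ddit4 below 1. Keratinocytes and fibroblasts express these genes too, and the monocyte and macrophage markers were lower in the same library (median -1.0).

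**Figure D5:**
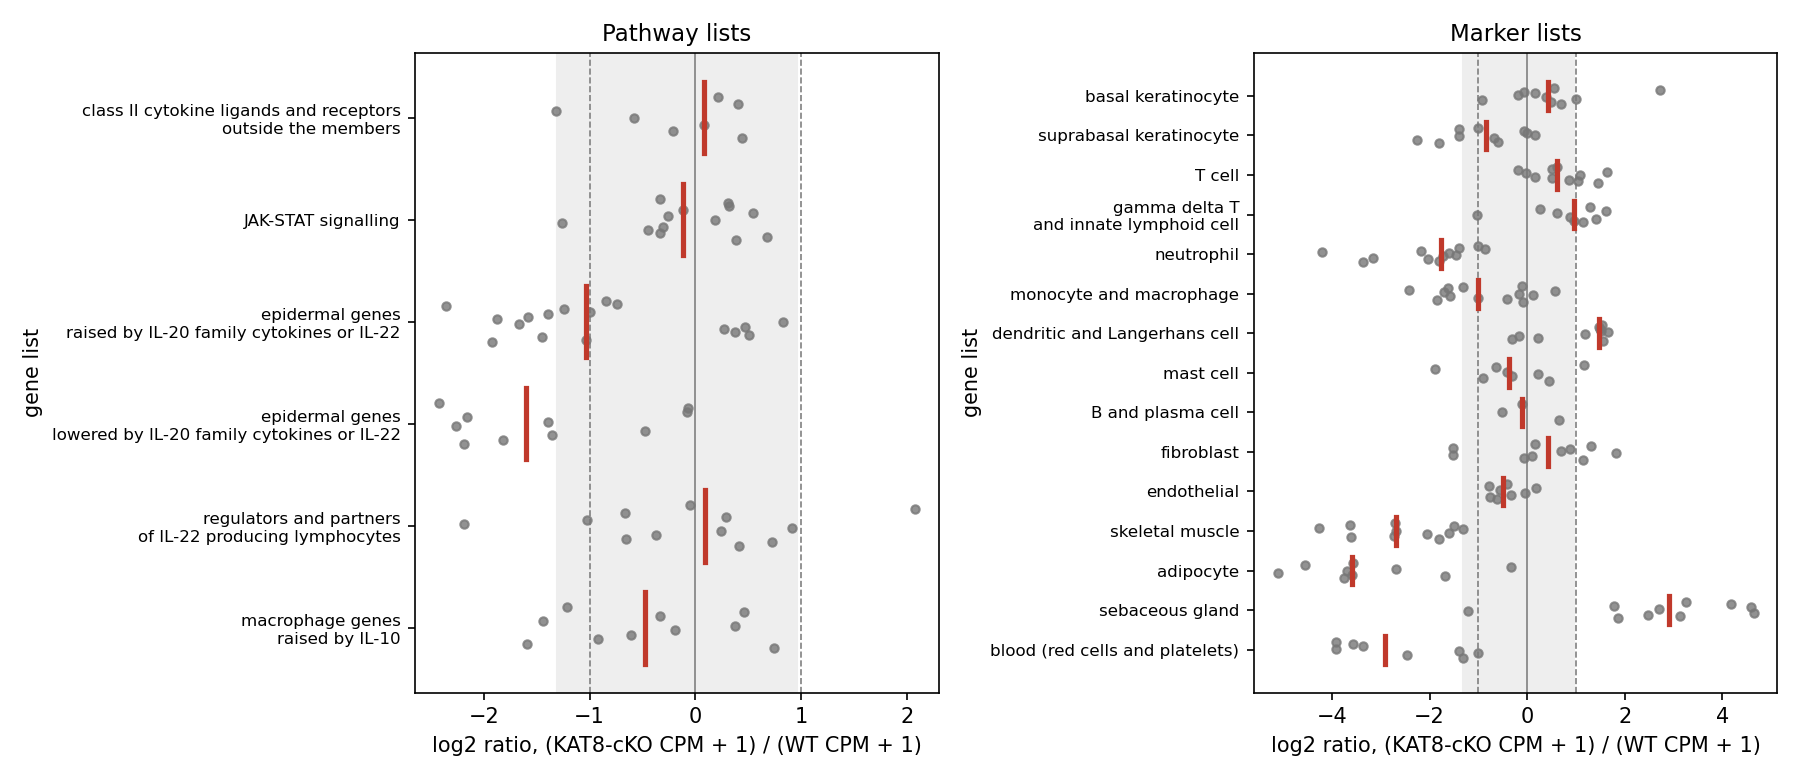
Log2 ratio, (CPM labelled KAT8-cKO + 1) over (CPM labelled WT + 1), of every measured gene of the pathway lists (left) and marker lists (right); grey points are genes, red bars are list medians, dashed lines mark 2-fold and the shaded band holds the 5th to 95th percentiles of all measured genes. Sex-linked genes are not drawn. The lists raised and lowered by IL-20 family cytokines or IL-22 have medians of -1.04 and -1.60, and the JAK-STAT list one of -0.12.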

How the data were processed

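The authors deposited unnormalized whole-number counts, 1 per Ensembl gene, for 1 library of each genotype label. Per the submitters' processing notes, HISAT2, StringTie 1.3.0, edgeR and mm10 were used, with no roles stated. Which tool counted, with which annotation and strand setting, is not given in the sources used. Symbols, exons and coordinates (counted from 1) were taken from GENCODE M21 on GRCm38, the assembly mm10 names. A symbol was found for 34344 of 34745 genes.

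Counts were scaled by library total times TMM factors of 1.06 (labelled KAT8-cKO) and 0.946 (labelled WT) from edgeR 4.0.16 in R 4.3.3. One count was 0.0689 CPM and 0.0868 CPM. Ratios carry exact binomial (Clopper-Pearson) or conditional 95% intervals, and levels exact Poisson intervals (scipy 1.17.1). All cover counting error only and not variation between animals. Reads that carry no molecular identifiers need not be separate molecules, so counting error itself may be larger than these intervals show. The pseudocount was 1 CPM, the filter 1 CPM and the rule 2-fold. With 1 library per group no p-value was computed. The calculations were tested on simulated Poisson counts with known changes. The intervals assume the same model, so this test checked the code and not variation between libraries.

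The genes and lists were chosen with earlier results of these data known. All 10 genes were named, with up to 4 of each pathway list and up to 2 of each marker list by size of ratio (2 by level where fewer than 2 passed), and measured neighbours. Some further list genes were named after their values were seen. They were Tyk2, Jak1, Il22ra2, genes used to describe list overlaps and genes given to show the spread of a list. Some genes that this rule names are not reported here. The 9 alternatives were 4 other scalings, DESeq2 1.42.0 size factors among them, another pseudocount (0.1 CPM), 2 other filters (none and 5 CPM), a call without a pseudocount, and leaving out genes that share exons.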

Additional observations from a re-analysis of the deposited data

How the results depend on the processing

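The 9 measured genes of the group kept their direction under the alternatives in which each had a value, except Il10ra, which lay near 0. Il20, not measured, was not followed across alternatives. The 2-fold calls of Il20ra and Il10 held in all of them. With plain CPM 2 genes of the group were higher and 1 lower, as Il19 passed (1.0) and Il24 did not (-0.87), and with totals that left out mitochondrial and the 50 most abundant genes 1 was lower, as Il24 did not pass (-0.93). Scaled to basal keratinocyte markers Il10rb passed (-1.01). Plain CPM moved the median log2 ratio of all genes to 0.16 and basal keratinocyte scaling to -0.24. The share of all genes higher was 2.98% with basal keratinocyte scaling and 6.89% without a pseudocount. With plain CPM the list medians were 0.24 (class II family), -0.88 (genes raised by the cytokines), -1.44 (genes lowered by them) and -0.31 (genes raised by IL-10). With basal keratinocyte scaling they were -0.18, -1.30, -1.87 and -0.73, and the JAK-STAT median was -0.37. The median of genes lowered by the cytokines was -1.50 without the most abundant genes, -1.39 without genes that share exons and -1.36 without the suprabasal markers, where 4 were lower. Without genes that share exons no JAK-STAT gene was lower (count 0), none of the IL-22 lymphocyte list was lower (0), and the median of genes raised by IL-10 was -0.76. That lymphocyte list had 2 higher genes with plain CPM, without the most abundant genes, with a pseudocount of 0.1 CPM and without a pseudocount, and 1 lower gene with plain CPM and without the most abundant genes. No paired analysis was possible because each genotype label has 1 library. For the same reason no replicate could be left out. Depth limited Il20 and Il22, whose ratio intervals include 1. The cause of these changes was not tested beyond the genes left out or the scale used in each alternative.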
